A study of Mus musculus with 10 samples.

Results

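RelA regions called at 8 h alone are the stretches of the mouse genome that were listed as bound by RelA after 8 h of lipopolysaccharide (LPS) and were met, by 1 bp or more, by no RelA region of 3 h of LPS and by no region of input DNA. There were 302 of them among the 1878 regions of the 8 h list outside input, and among 115077 regions in all 10 deposited lists. The other 1576 regions of the 8 h list overlapped a 3 h region and serve below as the comparison. The 302 were chosen on the calls of the 8 h, 3 h and input lists. Their absence at 3 h and their level at 8 h are therefore descriptions and support nothing. The glucocorticoid receptor (GR) lists and the RelA list with late dexamethasone (Dex) took no part in the choice.

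The cells were macrophages grown from bone marrow of C57BL/6J mice, and 1 library was made per condition, so no difference between conditions has a replicate check. RelA was precipitated from cells that had had LPS for 0, 3 or 8 h and no Dex, and from cells pretreated with Dex for 3 h and then left for those same LPS times. A further RelA library, at 8 h of LPS, had received Dex late, at an hour the labels do not state. GR was precipitated from cells given Dex and from cells given LPS and Dex, for times that are not stated, after an added cross-linking step with disuccinimidyl glutarate, and input DNA came from untreated cells. The name under which the 8 h list was deposited carries a further LPS time of 3 h that the labels do not explain. Whether LPS was present for all 8 h is therefore not settled, and "8 h" is used here as the labels give it. The age, sex and number of the mice are not given in the labels. The lists hold positions and strengths of regions and no expression values, so the labelled cell type could not be checked against its markers.

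NF-κB is a family of transcription factors that is held in the cytoplasm of a resting macrophage by inhibitor proteins, and RelA is one of its DNA-binding, gene-activating subunits. LPS, a component of the outer membrane of Gram-negative bacteria, sets it free through a Toll-like receptor. RelA then enters the nucleus and is drawn back out as newly made inhibitor binds it, and genes of the response are known to be switched on in early and late waves. Dex is a synthetic glucocorticoid. It binds GR, a nuclear receptor that sits on DNA directly or through other proteins and is known for restraining inflammatory genes.

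Positions are on the mouse build mm9 as deposited. No mm9 genome or gene annotation was at hand, so the regions are named by position, with no gene and no sequence. The strength of a region is given by the authors' score, a z-score per region, and by its highest tag density, both on the deposited scales. How these were scaled between libraries is not stated, and neither the depth of the libraries nor read counts were at hand. Percentages of regions carry 95% Wilson intervals in brackets, and differences between percentages carry 95% Newcombe intervals. Both cover counting error only, since regions of 1 library are not replicates of a condition.

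The 302 regions were mostly weak members of the 8 h list. Their highest tag density had a median of 20.3 (quartiles 17.6 and 23.9), with a lowest value of 4.16 and a highest of 76.2. The 1576 regions also called at 3 h had a median of 26.7 (20.9 and 37.0). The shared regions ranged from 6.24 to 160, so the classes overlapped at low and middle densities and the upper end was of shared regions. Of the shared regions, 25% lay below 20.9, close to the median of the 302. The score differed likewise, with a median of 13.1 (11.8 and 14.7) against 17.4 (13.4 and 24.8). The median width was 440.5 bp (324 and 509) against 576 bp (450.0 and 691). A score of 20 or more was reached by 16 of the 302 and by 614 of the 1576.

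When the 1878 regions were split into quintiles of the 8 h score, the regions of 8 h alone made up 31.9% of the lowest quintile (27.4 to 36.8; 120 of 376). They made up 27.5% of the next (103 of 375), 14.9% of the middle quintile (56 of 376) and 4.80% of the fourth (18 of 375). In the highest quintile they were 1.33% (0.569 to 3.07; 5 of 376). Over all 8 h regions the share was 16.1%, a value that the rule fixes. The classes therefore differed in strength, and the comparisons below are given within quintiles as well.

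**Figure D1:**
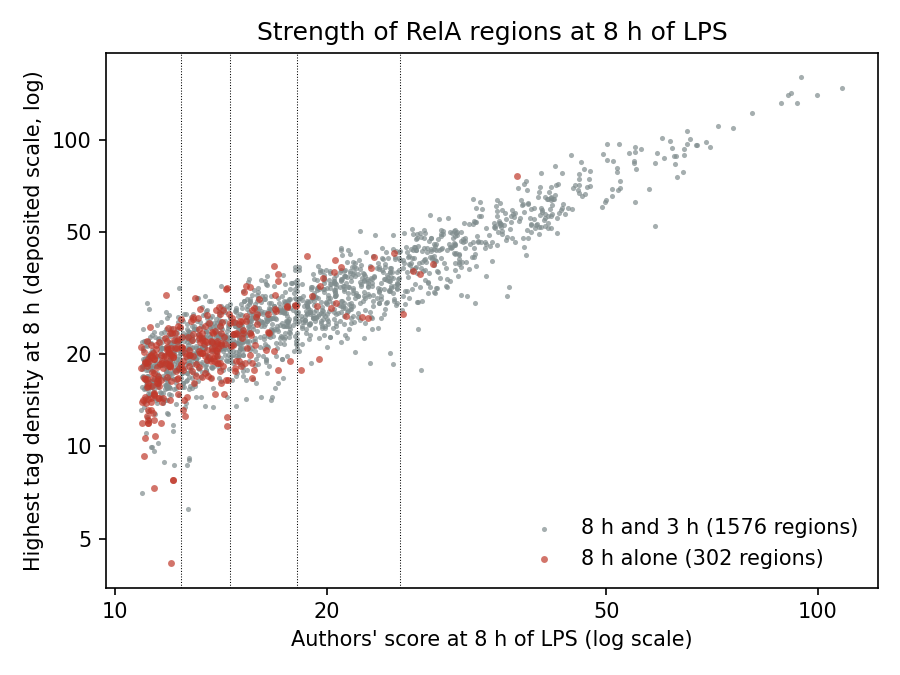
Highest tag density at 8 h of LPS (deposited scale, log axis) against the authors' score (log axis) for the 302 RelA regions of 8 h alone (red) and the 1576 also called at 3 h (grey), 1 point per region; dotted lines part the quintiles of the score. Most red points sit at the weak end, with 5 of them beyond the last line and 1, at a density of 76.2, far above the rest.

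The strongest region of 8 h alone was at chr3:60275768-60276480, with a score of 37.3 and a tag density of 76.2. The second by score, at chr17:10932866-10933565, reached 28.4 with a density of 39.3. The region at chr16:30678829-30679531 had a score of 27.2 and a density of 36.4, and chr10:96904981-96905702 had 26.6 and 37.4. The region at chr13:75358971-75359862 had 25.7 but a density of only 27.0, spread over 891 bp. These 5 were all the regions of 8 h alone in the highest quintile. The first stood apart from the others in density, while the remaining 4 lay between 27.0 and 39.3. The next 5 by score lay between 22.5 and 25.0, at chr13:35349943-35350855 and chr13:5827759-5828434, at chr12:56461828-56462546 and chr12:36422589-36423260, and at chr9:18257442-18258041. Each of the 10 met a GR region of LPS and Dex, and none of them met one of Dex. In the fourth and highest quintiles 91.6% and 98.1% of the shared regions also met GR of LPS and Dex. The 10 of 10 is thus near the background. GR of Dex met 18.8% and 27.8% of the shared regions of these quintiles, and 18.4% of all 8 h regions. Whether its absence at all 10 differs from those shares was not tested.

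At the other end, the lowest score was 10.9, at chr2:166541370-166541621, which to this precision was also the lowest score of the whole 8 h list. The narrowest width of the list, 251 bp, was found at 23 of the 302 regions, 7.62% (5.13 to 11.2), against 34 of the 1576, 2.16% (1.55 to 3.00). A tag density below 10 was found at 5 of the 302 and at 10 of the 1576. The thinnest region, at chr12:87486635-87486886, had a density of 4.16, and still met both GR lists, at GR densities of 9.42 with LPS and Dex and 2.39 with Dex. With such thin or narrow regions left out of both classes, the difference in overlap with GR of LPS and Dex was -14.7 percentage points, against -15.5 with them.

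The rule turns on an overlap of 1 bp, and few regions lay right at that edge. Other rules moved more of them. The count was 494 where an overlap had to cover at least 50% of both regions, and 363 where centres had to lie within 250 bp. Just inside the 1 bp rule, the regions closest to a 3 h region were at chr2:112180666-112181027, with a gap of 121 bp, chr6:87214307-87214684, with 156 bp, and chr19:21152981-21153479, with 188 bp. Their scores at 8 h were 11.1, 12.0 and 14.6. The regions at chr11:115050234-115050485 and chr14:75586638-75586928 followed at 238 and 297 bp. Just outside, the shared region with the smallest overlap was at chr17:42984575-42984893, which shared 38 bp with its 3 h region and had a score of 11.3. A further 4 shared regions overlapped by 77 to 89 bp, among them chr11:87572541-87572847 (77 bp) and chr4:144569907-144570286 (82 bp). Regions on either side of the rule were thus of like, low score.

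Whether the 302 were free of RelA at 3 h cannot be read from a list, since a list shows only what passed the authors' threshold. The 3 h list reached lower scores, 8.88 against 10.9 at 8 h, and 1601 of its 5017 regions (31.9%) scored below the lowest of the 8 h list. Among the 256 shared regions in the lowest quintile at 8 h, the median score at 3 h was 14.3 (11.8 and 19.2), and 45 of them, 17.6% (13.4 to 22.7), scored below 11 at 3 h. These were regions that had passed the 3 h call, so their scores do not bear on how near the 302 came to it. With 11 as the lowest score in both lists, the number of regions of 8 h alone went from 302 to 432.

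The distance to 3 h regions is a description, since the rule chose the 302 by their lack of overlap with these and the shared regions by having it. The median distance from edge to edge was 40694 bp (9210 and 199937), with a shortest of 121 bp and a longest of 5292769 bp. It was 5443 bp where an overlap had to cover at least 50% of both regions, 26031 bp where centres had to lie within 250 bp, and 70042 bp with the higher-scoring 50% of every list. For the 1576 shared regions, the nearest 3 h region other than those they overlapped lay at a median of 17497 bp (3249 and 90012). A 3 h region stood within 10 kb of 25.8% of the 302 (78 regions) and of 41.0% of the 1576. Within 1 kb the shares were 4.97% (15 regions) and 9.71%, and within 100 kb they were 63.6% and 76.0%. For the shared regions the 3 h regions they overlapped were left out, so the distances of the classes are not of quite the same kind.

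The median distance was the longer for 8 h alone in each quintile of the 8 h score. The medians were 39782 bp for 8 h alone and 23127 bp for the shared regions in the lowest quintile, 40216 and 20635 bp in the next, 34986 and 16731 bp in the middle, and 37638 and 15007 bp in the fourth. The 5 regions of the highest quintile lay between 52317 and 531655 bp from a 3 h region, against a median of 15666 bp for the 371 shared ones. Distance did not go with the strength of the 302 in 1 direction. The 15 regions within 1 kb had a median tag density of 19.9, the 63 at 1 to 10 kb had 21.9, the 114 at 10 to 100 kb had 20.9 and the 110 beyond 100 kb had 19.0.

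**Figure D2:**
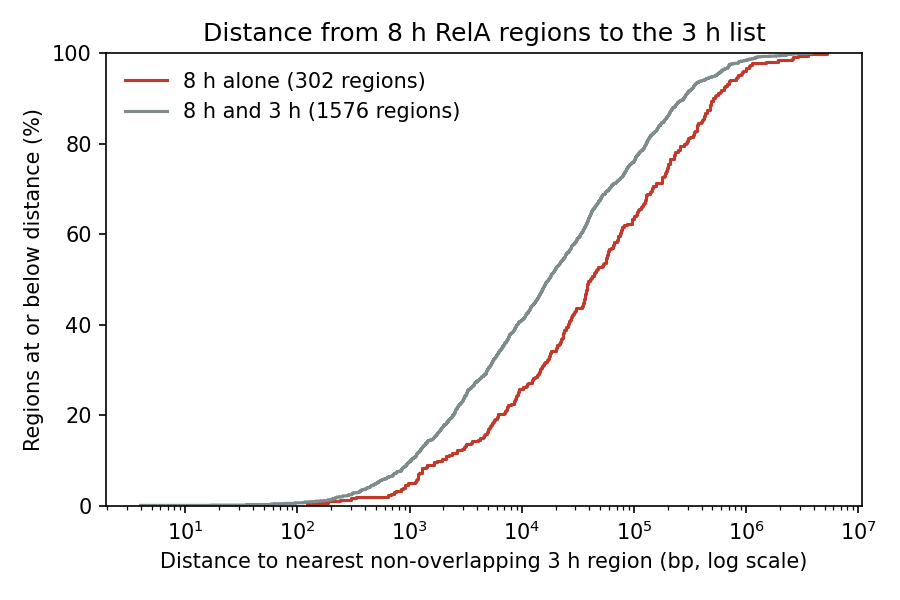
Cumulative percentage of regions (vertical axis) at or below a given distance in bp (log axis) to the nearest 3 h RelA region that they do not overlap, for the 302 regions of 8 h alone (red) and the 1576 also called at 3 h (grey). The red line runs below the grey one over most of the range, passing 50% at 40694 bp where the grey line does so at 17497 bp.

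The nearest 3 h region was itself called at 8 h for 151 of the 302, 50.0% (44.4 to 55.6). Of the 3 h list outside input, 3416 of 4972 regions were not called at 8 h. The share called at 8 h was thus lower there than among the nearest regions. In all, 277 different 3 h regions were nearest to the 302. These neighbours had a median 3 h score of 13.5 (10.8 and 19.8), close to that of the whole 3 h list, 12.9 (10.3 and 18.4). Measured to the shared regions of the 8 h list, the median distance was 120979 bp, and 54 of the 302 had such a region within 10 kb, 17.9% (14.0 to 22.6). Most regions of 8 h alone thus had no region called at both times within 10 kb. The distance from a shared region to another shared region was not computed, so whether this is particular to the 302 was not tested.

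The farthest from any 3 h region were at chrX:26123397-26123648 (5292769 bp), chr4:67118919-67119475 (3522044 bp), chrX:38605374-38605625 (2916887 bp), chrX:130661650-130662059 (2614062 bp), and chr1:189129165-189129592 (2575636 bp). The one on chromosome 4 was in the fourth quintile of the 8 h list, with a score of 19.4 and a tag density of 28.7, and met a GR region of LPS and Dex. The other 4 met no GR region and had scores of 10.9 to 14.8. The first of them had a mean tag density of 1.05, the lowest of the 302, and lay 160992 bp from an input region.

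Some regions of 8 h alone came in groups. No such share was computed for a like number of other regions, so whether they grouped seldom or often was not tested. Another of the 302 lay within 10 kb of 22 regions, 7.28% (4.86 to 10.8), and these formed 10 groups, 8 of them pairs. The triplet at chr12:41440202-41445954 spanned 5752 bp, and its scores were 18.1, 15.9 and 12.2. All 3 of its regions met GR of LPS and Dex. The triplet at chrX:163383164-163388919 had scores of 19.5, 14.1 and 15.8, and its first 2 regions met GR. Of the pairs, that at chr12:56461828-56469921 held the seventh strongest region of the 302, with a score of 23.4, beside one of 14.2. The pair at chr5:108207569-108210651 had scores of 16.9 and 12.5 and no GR region in either list.

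The 302 were spread over chromosomes 1 to 19 and X. The share of 8 h regions that were of 8 h alone ran from 8.41% on chromosome 1 (4.49 to 15.2; 9 of 107) and 9.23% on chromosome 11 (12 of 130) to 25.8% on chromosome 12 (18.1 to 35.3; 25 of 97), 27.7% on chromosome 13 (19.6 to 37.4; 26 of 94) and 37.5% on chromosome X (25.2 to 51.6; 18 of 48). Chromosome 8 had 25.0% (16.6 to 35.8; 19 of 76). On chromosomes 12 and 13 the regions of 8 h alone were somewhat denser than the whole set, with median tag densities of 22.6 and 24.2. This was not particular to chromosomes with a high share, since chromosome 17 had a density of 22.7 and a share of 12.2%. GR in cells with LPS and Dex met 20 of the 25 and 22 of the 26, beside 72.8% of all 302. It met 17 of the 19 on chromosome 8 and 12 of the 12 on chromosome 9. Other chromosomes lay below the 72.8%, among them chromosomes 1 (4 of 9), 7 (7 of 12), 10 (13 of 22), 11 (6 of 12) and 18 (5 of 9). Whether the share with GR varied between chromosomes was not tested.

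Chromosome X had the highest share. Its 18 regions ranged up to a tag density of 19.3, and their median was 14.7 (12.7 and 17.6), where the other 284 had a median of 20.6. By score they were close, with medians of 12.6 and 13.2. The 30 shared regions of that chromosome had a median density of 20.7, also below the 26.7 of all shared regions. A GR region of LPS and Dex was met by 10 of the 18, 55.6% (33.7 to 75.4), and by 26 of the 30. Chromosome X held 2.51% of the 3 h list and 30.7% of the input list, while the 18 regions lay at a median of 2957886 bp from an input region. The part of their low density in these shares was not tested. Without chromosome X, 73.9% of the remaining regions had such GR.

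**Figure D3:**
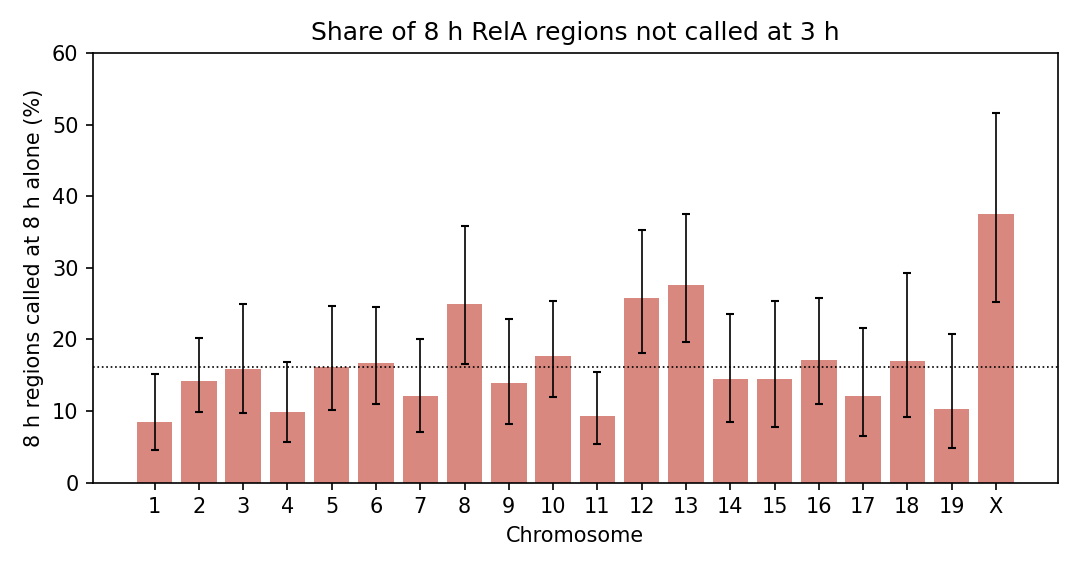
Percentage of the 8 h RelA regions of each chromosome that were called at 8 h alone (bars from 0), with 95% Wilson intervals as error bars; the dotted line is the share over all 1878 regions, 16.1%. Chromosomes 8, 12, 13 and X have intervals above the line, at 25.0%, 25.8%, 27.7% and 37.5%, and chromosomes 1 and 11 have intervals below it.

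GR of LPS and Dex was found at most regions of 8 h alone, though less often than at the shared regions. It met 220 of the 302, 72.8% (67.6 to 77.6), and 1392 of the 1576, 88.3% (86.6 to 89.8), beside 85.8% of all 8 h regions. The difference was -15.5 percentage points (-21.0 to -10.5). Where an overlap had to cover at least 50% of both regions, 494 regions were of 8 h alone, GR met 44.9% of them, no longer most, and the difference was -35.8 points. That rule changed the membership and the GR overlap together, and their parts were not separated. The 302 were also narrower than the shared regions, with median widths of 440.5 and 576 bp. The GR cells had received Dex and the RelA cells of the 8 h list had not, so the lists show positions in differently treated cells. Each of the 220 met 1 GR region, and no 2 of them met the same one. Among the 3416 regions called at 3 h and not at 8 h, GR of LPS and Dex met 49.9% (48.2 to 51.6), and 56.5% (54.3 to 58.6) of the 1959 whose score reached the lowest of the 8 h list. In the share with GR of LPS and Dex, the 302 thus lay between the regions of 3 h alone and those of both times. This order did not hold for GR of Dex, as given below.

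Part of this gap went with strength. Had the shared regions been spread over the score quintiles as the 302 were, GR of LPS and Dex would have met 82.6% of them, against the 72.8% of the 302. In the lowest quintile GR met 65.8% of 120 regions of 8 h alone and 81.2% of 256 shared ones, a difference of -15.4 points (-25.3 to -5.96). In the next it met 77.7% of 103 and 79.8% of 272, and the difference of -2.11 points (-12.1 to 6.57) did not exceed counting error. In the middle quintile the shares were 67.9% of 56 and 86.2% of 320, a difference of -18.4 points (-31.8 to -6.86). In the fourth and highest quintiles all 18 and all 5 regions of 8 h alone met GR, against 91.6% of 357 and 98.1% of 371, and intervals for so few regions are wide. The intervals of the first 3 quintiles overlap, and whether the gap differed between quintiles was not tested.

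**Figure D4:**
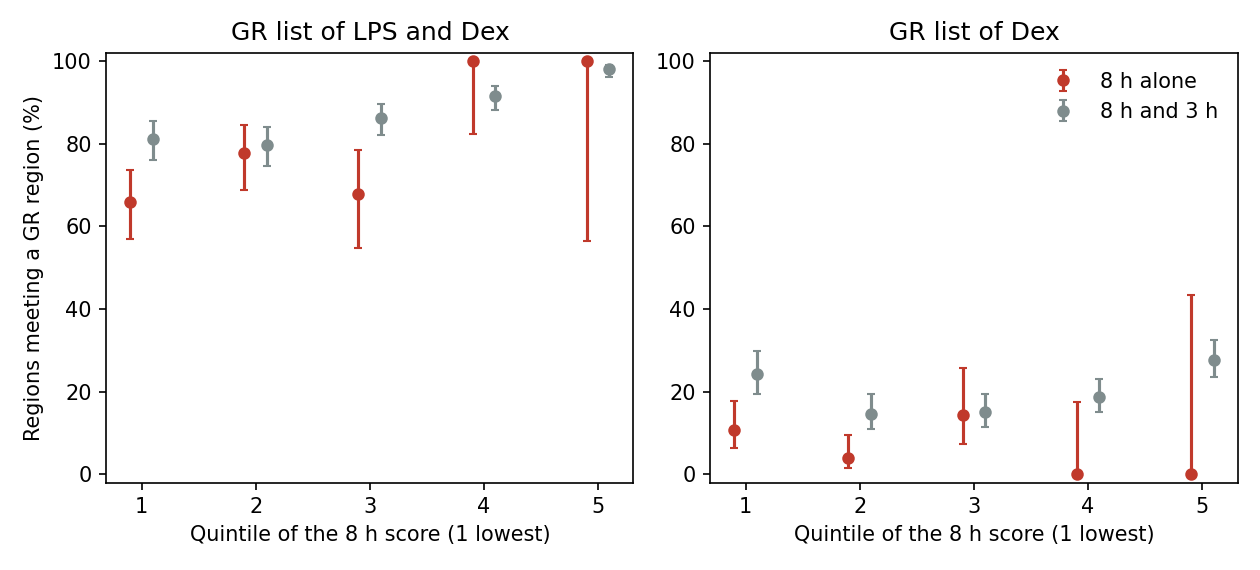
Percentage of RelA regions that met a GR region of LPS and Dex (left) or of Dex (right), by quintile of the 8 h score from 1 (lowest) to 5, for regions of 8 h alone (red) and regions also called at 3 h (grey); points are shares and bars 95% Wilson intervals. On the left, red lies below grey in quintiles 1 and 3 (65.8% and 67.9% against 81.2% and 86.2%) and close to it in quintile 2. Red lies above grey there in quintiles 4 and 5, which hold only 18 and 5 red regions. On the right, red lies below grey in quintiles 1 and 2 (10.8% and 3.88% against 24.2% and 14.7%). It is also below, at 0%, in quintiles 4 and 5 (against 18.8% and 27.8%), and close to grey in quintile 3.

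The GR regions met were strong ones of their list. Of the 220, 214 had a highest GR tag density of at least 10, so that GR of such density met 70.9% of the 302, beside 85% of all 8 h regions. In the whole GR list of LPS and Dex 32.2% of the regions reached that density. The median GR density at the 220 was 27.5 (18.9 and 40.8), from 8.16 to 154, and 88.9% of the whole list lay below that median. Among the listed GR regions with a density of at least 10, 65.5% lay below it. At the 1392 shared regions with GR the median was 37.1 (24.2 and 59.7). The centres of the RelA and GR regions lay 45.8 bp apart at the median (22.0 and 92.1) for the 220 and 44.0 bp (19.0 and 83.5) for the 1392, and 77.7% (71.8 to 82.7) and 80.7% (78.5 to 82.7) lay within 100 bp. Only overlapping regions entered, which builds in part of that closeness, and in this measure the classes did not differ beyond counting error.

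The regions of highest GR density were not those of highest RelA score. The highest GR density of LPS and Dex, 154, was at chr11:115050234-115050485, a region of the narrowest width with a RelA density of 14.4. Its GR density with Dex was 62.1. It was also among the 5 nearest to a 3 h region, with a gap of 238 bp, and the centres of the RelA and GR regions lay 184 bp apart. At chr9:118578795-118579389, GR density was 141 with LPS and Dex and 17.2 with Dex, and RelA density was 23.7. The region at chr13:24691459-24691959 had GR densities of 112 and 24.5 and a RelA density of 24.8. The region at chr17:81324831-81325372 had a GR density of 107 with LPS and Dex and met no GR region of Dex, the nearest being 7389 bp away. The region at chr10:98343405-98343692 had 98.0 and 9.56. At the strongest RelA region, chr3:60275768-60276480, GR density was 28.3, near the median of the 220.

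**Figure D5:**
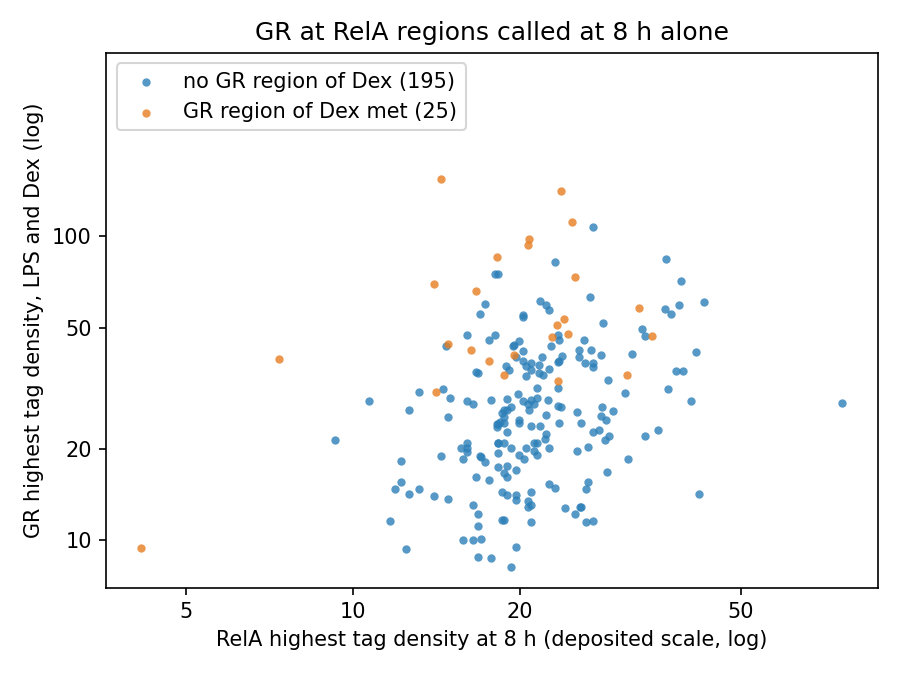
Highest GR tag density in cells with LPS and Dex against highest RelA tag density at 8 h of LPS (deposited scales, log axes) at the 220 regions of 8 h alone that met such a GR region, 1 point per region; orange points (25) also met a GR region of Dex. Orange points lie toward the top, with a median GR density of 47.6 against 25.4 for the 195 blue points, and the point farthest right, at a RelA density of 76.2, has a GR density of 28.3.

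GR of Dex without LPS was rare at these regions. It met 25 of the 302, 8.28% (5.67 to 11.9), and 320 of the 1576, 20.3% (18.4 to 22.4), beside 18.4% of all 8 h regions. The difference was -12.0 percentage points (-15.3 to -7.90). GR of Dex with a density of at least 10 met 6.62% of the 302 (20 regions), beside 17.3% of all 8 h regions. Weighted to the score quintiles of the 302, the shared regions would have had 19.0%, so strength as scored at 8 h moved this gap little. Within quintiles the shares were 10.8% and 24.2% in the lowest, 3.88% and 14.7% in the next, 14.3% and 15.0% in the middle, 0 of 18 and 18.8% in the fourth, and 0 of 5 and 27.8% in the highest. The difference in the middle quintile, -0.71 points (-8.83 to 11.3), lay within counting error.

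Every region that met GR of Dex also met GR of LPS and Dex, in both classes. Of the 220 regions with GR of LPS and Dex, 25 also met GR of Dex, 11.4% (7.82 to 16.2), against 23.0% (20.9 to 25.3) of the 1392. The remaining 195 had GR in the list of LPS and Dex only. The 25 had the higher GR density with LPS and Dex, with a median of 47.6 (39.5 and 73.2) against 25.4 (18.1 and 37.6) for the 195, while their RelA score was no higher, 12.1 against 13.3. At all 25 the GR density was higher with LPS and Dex than with Dex, where the median was 13.7 (12.5 and 17.2), and the same was found at 319 of the 320 shared regions. The scales of both GR libraries are not known to match, and most regions of the Dex list, 51178 of 55196, had a density below 10, so these densities are set side by side without a ratio. After the region of chromosome 11, the highest Dex densities were at chr2:29627607-29628093 (34.9 with Dex, 93.4 with both agents) and chr3:104849715-104850170 (25.6 and 73.2). These 2 were picked by their Dex density after the values had been seen.

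The 82 regions of 8 h alone without GR in either list were somewhat weaker than the 220. Their median score was 12.4 (11.5 and 14.1) against 13.3 (11.9 and 14.9), and their median tag density 19.8 against 20.6, with a highest value of 33.0. The nearest GR region of LPS and Dex lay at a median of 14846 bp (5143 and 25987), and 7 of the 82 had one within 1 kb. The shared regions without GR lay 10529 bp away at the median. The strongest of the 82 were at chr15:62617842-62618368 (score 17.5), chr1:93570718-93571267 (17.1), chr5:108207569-108208083 (16.9), chr11:64440888-64441766 (16.6) and chr6:34222411-34222998 (16.4). All 5 were in the middle quintile. That of chromosome 11 lay 26593 bp from a strong 3 h region, with a 3 h score of 59.8, which was also called at 8 h.

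Between neighbouring classes of distance to 3 h regions, no difference in the share with GR went beyond overlapping intervals. A GR region of LPS and Dex lay at 9 of the 15 regions within 1 kb of a 3 h region, at 79.4% (67.8 to 87.5) of the 63 at 1 to 10 kb, at 75.4% (66.8 to 82.4) of the 114 at 10 to 100 kb and at 68.2% (59.0 to 76.1) of the 110 beyond. For GR of Dex the shares were 2 of 15, 12.7% (6.58 to 23.1), 7.89% (4.21 to 14.3) and 5.45% (2.52 to 11.4).

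With Dex given late, RelA was called at 3 of the 302 regions, 0.993% (0.338 to 2.88), and at 199 of the 1576, 12.6% (11.1 to 14.4), beside 10.8% of all 8 h regions. With so few regions the share varied with the settings, from 0.463% with a lowest score of 11 in every RelA list to 2.02% with overlap of at least 50% of both regions and 3.31% with centres within 250 bp. The difference was -11.6 percentage points (-13.5 to -9.19). Most of it went with strength. Of the 199 shared regions 153 were in the highest score quintile, where only 5 regions of 8 h alone lay and none of them was called with late Dex. With the shared regions weighted to the quintiles of the 302 their share would have been 3.01%, about 9.09 regions in 302. In the lower 4 quintiles together the shares were 1.01% (0.344 to 2.93; 3 of 297) and 3.82% (2.87 to 5.05; 46 of 1205), a difference of -2.81 points (-4.21 to -0.671). Within each of the first 4 quintiles the interval of the difference included 0.

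The 3 regions called with late Dex were not the 3 strongest. At chr13:35349943-35350855, the sixth by score, the score was 25.0 without Dex and 9.96 with late Dex, and the tag density 42.9 and 20.5. At chr5:32470762-32471376, the score was 16.9 and 12.3 and the density 27.7 and 21.6. At chr13:24691459-24691959, the score was 13.4 and 10.2 and the density 24.8 and 17.3. All 3 had lower values with late Dex, on scales not known to match. Each met GR of LPS and Dex, at densities of 60.9, 23.1 and 112, and only the last met GR of Dex. The late Dex list started at a score of 9.85, so the first and last of these were near its lower end.

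None of the 302 was called in resting cells or in any library with Dex pretreatment. By the Wilson interval, a count of 0 in 302 allows a share of up to 1.26% in each of these 4 lists. Over all 8 h regions, 1.92% were called at 0 h, 1.6% with pretreatment and no LPS, 0.639% with pretreatment and 3 h of LPS, and 0.16% with pretreatment and 8 h. In at least 1 of the 4 lists, 2.88% of all 8 h regions were called. The lists are short, with 47, 43, 33 and 15 regions outside input, and the zeros at these regions are read against that.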

How the data were processed

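Deposited lists of enriched regions from 10 ChIP-seq libraries of mouse macrophages were used, 1 list and 1 library per condition. The submitters' processing notes name CASAVA and the build mm9. Which program called the regions, and at what cut-off, is not given in those sources. Per the file headers, the authors give each region a highest and a mean tag density (a signal, with no stated scaling), a z-score, which is the score used here, and a p-value, which was deposited as 0 where very small and was not used. Sequencing depth was not at hand, so precision rests on numbers of regions alone.

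Overlaps, distances, Wilson and Newcombe intervals were computed with Python 3.11.15, pandas 2.3.3, SciPy 1.17.1 and statsmodels 0.14.6. Overlaps, distances to the nearest region and Wilson intervals were tested on simulated data. Newcombe intervals and the distances that leave out overlapped regions were not. Overlap meant 1 bp or more. Regions of the 8 h list meeting input were left out. Where a region met several of another list, the one of highest tag density gave the value. No test between conditions was possible with 1 library each. Quintiles were those of the 8 h score over 1878 regions. Named regions were the 10 of highest score, those called with late Dex, the 5 nearest to and the 5 farthest from a 3 h region, the 5 of highest GR density and the 5 strongest without GR; groups, thin regions and edge cases were named after their values were seen. The regions and these rules were chosen with earlier results of these data known.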

Additional observations from a re-analysis of the deposited data

How the results depend on the processing

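The number of regions of 8 h alone, their tag density, their distance to 3 h regions, their GR and late Dex shares, and the GR difference from shared regions were recomputed under 9 alternatives, of which leaving out chromosome X and leaving out narrow or thin regions were chosen after seeing the data. Of 59 recomputed values, 49 stayed within 1.5 times the count or within the interval of the value, 10 moved and none reversed. When an overlap had to cover at least 50% of both regions, the count was 494, the median distance 5443 bp, the share meeting GR of LPS and Dex 44.9% and the difference from shared regions -35.8 percentage points. That rule was applied to overlaps with GR as well, and it also places partly overlapping 3 h regions beside the regions of 8 h alone. When centres had to lie within 250 bp, the median distance was 26031 bp, the GR share 65.6% and the late Dex share 3.31%. With the higher-scoring 50% of every list the count was 121, the median tag density 29.6 and the median distance 70042 bp. A lowest score of 11 in every RelA list, input regions kept, a gap of 500 bp to 3 h regions, and GR of density 10 or more kept the values within those limits. The GR difference ran from -35.8 to -11.7 points over all settings. No paired analysis was possible because each condition had 1 library. Unknown depth and list thresholds limit every statement on absence at 3 h.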
